A study of Mus musculus with 5 samples.

Results

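The cells described here are the B-lineage cells of mouse ventral skin. They were chosen by measured values: among barcodes with 300 or more genes and no more than 10% of UMIs (unique molecular identifiers, each standing for 1 captured RNA molecule) from mitochondrial genes, those counted were the ones where Cd79a, Cd79b, Ms4a1 and Ighm together gave 3 UMIs or more, with 1 or more from Cd79a or Cd79b. Such a barcode also had to hold no UMI of Cd3d, Cd3e or Cd3g, under 1% of its UMIs from Col1a1, Col1a2, Col3a1 and Dcn, and under 0.5% from C1qa, C1qb, C1qc and Pf4. By this rule 54 of 10611 kept barcodes (0.509%) were B-lineage cells, and 11084 barcodes were deposited. The levels of the 4 chosen markers are therefore a description and support nothing. Of the 54 cells, 4 held exactly 3 marker UMIs, and 16 barcodes just outside the rule held 2.

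The study profiled single cells of ventral skin from C57BL/6J mice at postnatal day 28 (4 weeks), in 2 libraries of wild-type mice (WT) and 3 of Prx1Cre+Ikkbf/f mice (Ikkb_cKO), with 2 mice pooled in each library. Prx1Cre recombines the floxed Ikkb allele in the Prx1 lineage, which in skin includes fibroblasts, so B cells are not the targeted cells, and the wild-type mice carry no Cre or floxed allele by their label. Sorting removed debris, dead cells and aggregates, with no marker for B cells. Kept barcodes numbered 3088 and 3252 in the WT libraries and 984, 918 and 2369 in the Ikkb_cKO libraries, and their median depth was 3607 and 4035 against 1610.5, 1885 and 2793 UMIs. Pairs of libraries shared 0 to 17 cell barcodes, and 1 shared barcode was a B-lineage cell. The targeted gene, Ikbkb, gave 0 UMIs in the B-lineage cells of both WT libraries and 3, 6 and 6 in those of the Ikkb_cKO libraries. Which part of the transcript the reads cover was not checked, and it need not be the deleted part, so these counts check no label.

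B cells recognise antigen through a membrane immunoglobulin, built from a heavy and a light chain whose variable segments are joined anew in each B cell, and signal through the Cd79a and Cd79b proteins. A naive B cell carries IgM and IgD and presents antigen on MHC class II. When it becomes an antibody-secreting cell it makes large amounts of immunoglobulin RNA, expands the endoplasmic reticulum under the control of Xbp1, loses MHC class II and membrane B cell genes, and, if it secretes polymeric IgM or IgA, joins the antibody units with the J chain encoded by Jchain. Resting skin holds few B cells.

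B-lineage cells made up a larger share of the Ikkb_cKO libraries than of the WT libraries. There were 9 and 6 cells in the WT libraries, or 0.291% (95% Clopper-Pearson interval 0.133 to 0.553) and 0.185% (0.0677 to 0.401) of kept barcodes. The Ikkb_cKO libraries held 12, 13 and 14 cells, or 1.22% (0.632 to 2.12), 1.42% (0.756 to 2.41) and 0.591% (0.323 to 0.990). Every Ikkb_cKO library lay above both WT libraries. The mean share was 1.08% ± 0.431 (SD, n = 3) against 0.238% ± 0.0756 (SD, n = 2), a ratio of 4.52 (2.57 where 2 marker UMIs were enough, and 2.46 for the Jchain-low cells defined further on), and the exact two-sided permutation test over the 5 libraries gave p = 0.2, where 0.1 is the smallest p that 2 against 3 libraries allow. The intervals cover counting error only.

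How far the groups stood apart depended on the denominator. Among barcodes with a Ptprc UMI, the general leukocyte marker, the WT shares were 0.210% and 0.569% and the Ikkb_cKO shares 2.44%, 3.52% and 0.760% (exact permutation p = 0.2, adjusted over the 3 denominators 0.3). These shares rest on 1 and 3 WT cells and 6, 8 and 6 Ikkb_cKO cells, some of which went against the label, as described further on. Beside CD3-positive T cells (at least 2 CD3 UMIs, no B-lineage marker UMI, same limits), B-lineage cells were 16.4% and 11.1% of the lymphocytes so counted in WT and 16.7%, 20.3% and 5.71% in Ikkb_cKO. On that scale the groups overlapped and Ikkb_cKO replicate 3, which held 231 T cells against 46 to 60 in the other 4 libraries, was the lowest of the 5 (exact permutation p = 0.9, adjusted 0.9). With every barcode thinned to 1000 UMIs the share of kept barcodes was 0.211% and 0.133% in WT and 1.07%, 0.825% and 0.289% in Ikkb_cKO.

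**Figure D1:**
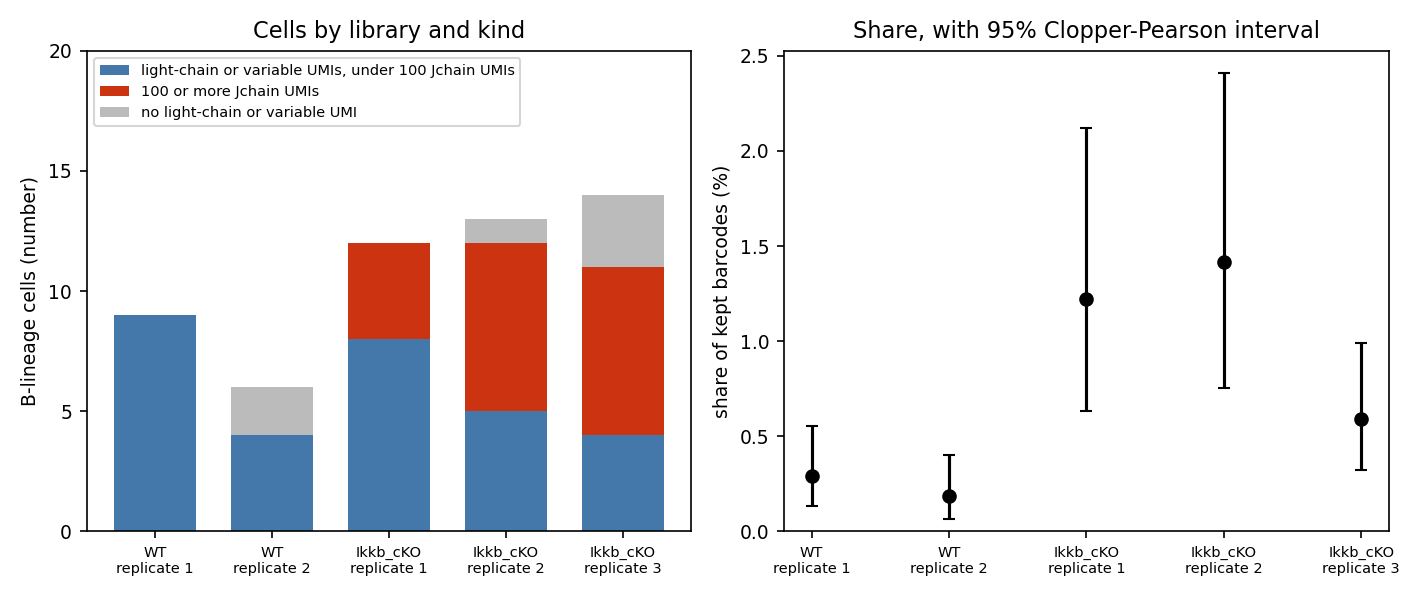
Left, the number of B-lineage cells in each library (bars from 0), divided into cells with light-chain or variable-segment UMIs and under 100 Jchain UMIs, cells with 100 or more Jchain UMIs, and cells with no light-chain or variable-segment UMI. Right, their share of kept barcodes in % with the 95% Clopper-Pearson interval. The 18 cells with 100 or more Jchain UMIs stand in the 3 Ikkb_cKO libraries, and the 3 Ikkb_cKO shares lie above both WT shares.

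The B-lineage cells fell into 3 kinds when their immunoglobulin RNA was read cell by cell. In 18 cells Jchain gave 216 to 1930 UMIs, with a median of 561, and in the other 36 cells it gave 4 at most. These are called Jchain-high cells, at 100 Jchain UMIs or more, a limit set after the values were seen. A further 30 cells carried at least 1 UMI of an immunoglobulin light chain or variable segment but fewer than 100 Jchain UMIs, and are called Jchain-low cells. The remaining 6 carried no light-chain or variable UMI and under 100 Jchain UMIs, and were led by genes of other cells. Of these, 4 still held 1 to 7 UMIs of Ighm. No test is given between the kinds, since they were drawn from the values themselves.

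Jchain-high cells were found in all 3 Ikkb_cKO libraries and in neither WT library. There were 4, 7 and 7 of them, or 0.407%, 0.763% and 0.295% of kept barcodes. None of the 6340 kept WT barcodes was Jchain-high, which allows a share of up to 0.0473%. Jchain-low cells numbered 9 and 4 in the WT libraries and 8, 5 and 4 in the Ikkb_cKO libraries. Their shares, 0.291% and 0.123% against 0.813%, 0.545% and 0.169%, overlapped between the groups, and the exact permutation test over libraries gave p = 0.3.

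The Jchain-high cells carried IgM. Ighm, the constant region of the IgM heavy chain (chr12:113418558-113422730, minus strand, mm10), gave 474 to 2581 UMIs per cell with a median of 1322, against 1 to 35 with a median of 6 in the Jchain-low cells. Ighd gave 0 UMIs in all 18. Across the 54 cells the constant regions of the switched classes IgG, IgA and IgE gave 4 UMIs together, 3 of them from Igha, beside 26277 UMIs of Ighm. Immunoglobulin RNA made up 19.2% to 56.6% of the UMIs of a Jchain-high cell, with a median of 46.2%, and 0.344% to 4.49% of a Jchain-low cell. The 2 ranges did not overlap.

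**Figure D2:**
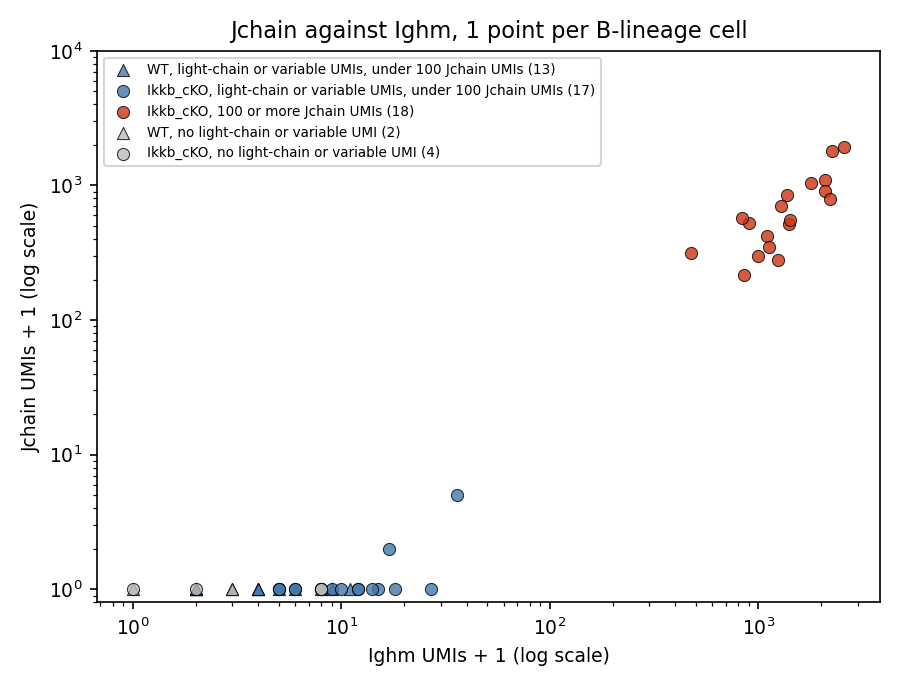
Jchain UMIs against Ighm UMIs in each of the 54 B-lineage cells, both plus 1 on log scales, with triangles for WT and circles for Ikkb_cKO and colours for the 3 kinds. The 18 Jchain-high cells sit at 474 or more Ighm UMIs and 216 or more Jchain UMIs, and the other 36 at 35 or fewer and 4 or fewer.

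RNA of these genes was also found in cells that should not make it. In a fibroblast gate (1% or more of UMIs from the collagen genes and Dcn, no Ptprc or CD3 UMI, the same macrophage limit) 3.55% and 3.15% of WT cells and 7.81%, 9.44% and 3.61% of Ikkb_cKO cells had an Ighm UMI, at median depths of 4804 and 5262 against 1541, 1782 and 2448 UMIs. For Igkc the shares were 0% and 0% against 4.30%, 4.08% and 2.10%, and for Jchain 0% and 0.0525% against 3.52%, 0.858% and 0.466%. Cd79b, a gene of the rule, stood the other way round, at 3.43% and 3.57% of WT cells against 0%, 0% and 0.116%. These are shares of cells with a UMI. The summed levels lay far apart. The 512, 466 and 859 fibroblasts of the Ikkb_cKO libraries summed to 18.6, 3.81 and 5.86 CPM of Jchain (counts per 1000000 UMIs) and the B-lineage cells to 25602, 42964 and 38571.

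Light chains were mostly kappa. Igkc exceeded the lambda constant regions in 17 of the 18 Jchain-high cells, and 1 cell of Ikkb_cKO replicate 1 was lambda, with 6985 UMIs of Iglv1 and 1016 of Iglc1. Kappa variable segments gave more UMIs than Igkc in 14 of the 18 Jchain-high cells. Each Jchain-high cell was led by 1 light-chain and 1 heavy-chain variable segment. The leading light-chain segment took 62.7% to 99.96% of a cell's light-chain variable UMIs (median 98.6%), and the leading heavy-chain segment 97.6% to 100% (median 99.9%). The lowest light-chain value, 62.7%, belongs to a cell of Ikkb_cKO replicate 3 with 42 UMIs of Igkv10-96 and 24 of Iglv1. Igkv12-89 was the segment with the most UMIs in any cell, 11490, in another cell of that library.

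The 18 Jchain-high cells used 14 light-chain and 15 heavy-chain segments in 15 pairs, and 13 of the pairs were seen in 1 cell each. Igkv5-43 with Ighv3-6 (chr12:114288152-114288582) was the leading pair in 3 cells of Ikkb_cKO replicate 2. Those cells held 5690, 1556 and 1508 UMIs of Igkv5-43 and 882, 322 and 147 of Ighv3-6. Igkv8-28 (chr6:70143593-70144161) with Ighv5-17 (chr12:113859149-113859616) led 1 cell of Ikkb_cKO replicate 1, with 882 and 54 UMIs, and 1 cell of Ikkb_cKO replicate 2, with 3111 and 343 UMIs. These 2 libraries shared 0 barcodes, so the pair stands on different barcodes. Ikkb_cKO replicate 3 held 7 pairs in 7 cells, Igkv12-89 appearing in 2 of them with Ighv1-56 and with Ighv1-75. Whether cells with the same pair descend from 1 B cell cannot be read from these counts, which hold no junction sequence, and each library pools 2 mice.

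The segment names rest on small differences between germline genes. The coding parts of 29 leading segments were compared with all other mouse variable segments of the same chain in GENCODE M21, and the nearest other segment had 85.0% to 98.6% identical bases (median 95.4%). Igkv5-43, the segment shared by 3 cells, differs from Igkv5-45 at 5 of 347 bases. The first 180 coding bases of both, spliced and read 5′ to 3′ from GRCm38, are printed to show how little separates them. Capitals mark the 5 bases that differ, and the coordinates are those of the whole coding part.
Igkv5-43, chr6:69823355-69823911, minus strand: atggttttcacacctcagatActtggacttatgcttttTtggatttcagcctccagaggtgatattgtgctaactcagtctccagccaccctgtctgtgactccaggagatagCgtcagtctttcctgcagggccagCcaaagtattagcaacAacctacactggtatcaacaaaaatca
Igkv5-45, chr6:69775750-69776306, minus strand: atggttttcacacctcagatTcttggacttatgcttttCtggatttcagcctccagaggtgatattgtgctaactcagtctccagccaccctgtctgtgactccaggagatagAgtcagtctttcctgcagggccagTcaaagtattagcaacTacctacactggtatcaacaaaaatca
Reads that cover none of these bases cannot be given to 1 of the pair, and how such reads were counted is unknown here. The segment totals are uncertain in that respect, and the names are those of the deposited gene table.

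**Figure D3:**
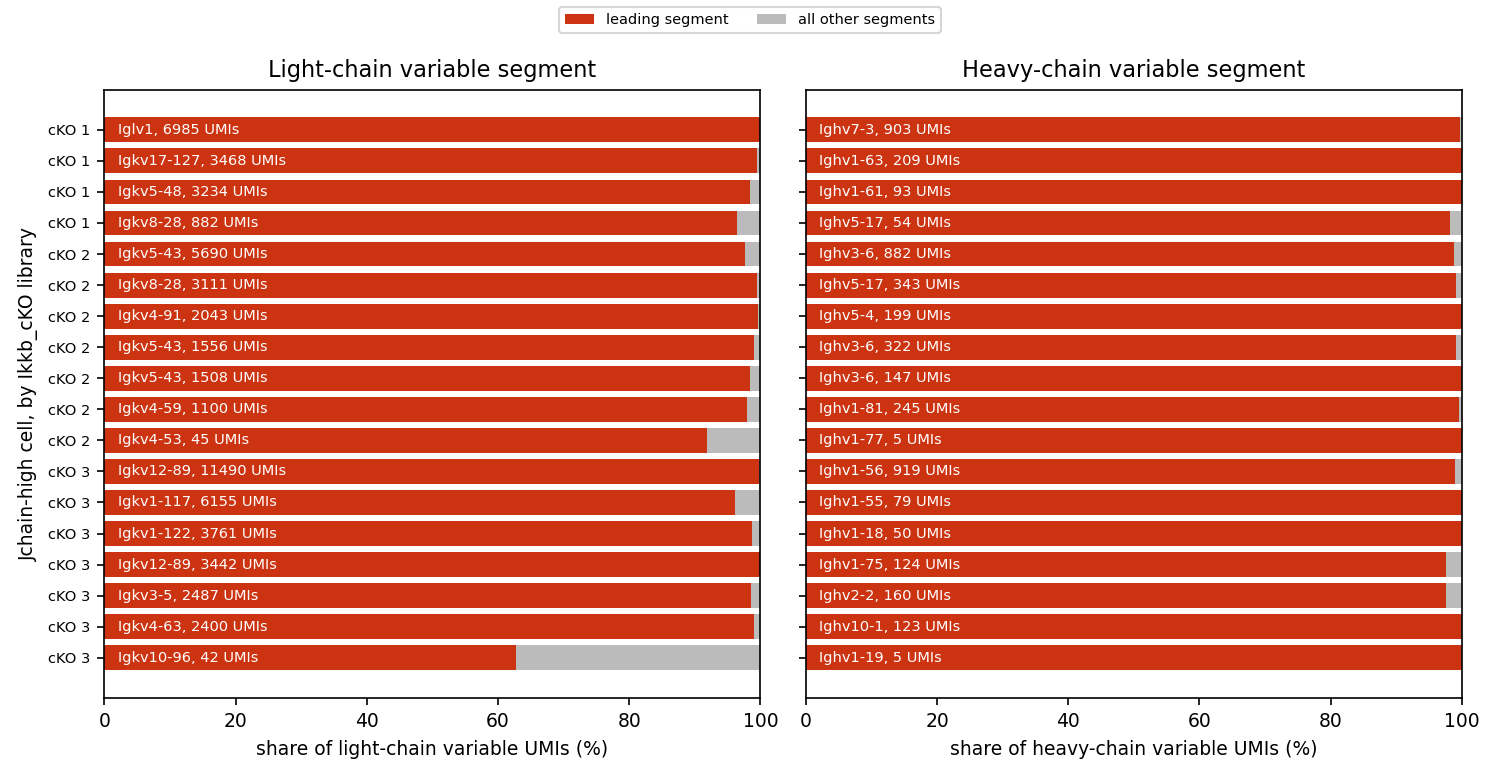
Share in % of a Jchain-high cell's light-chain (left) and heavy-chain (right) variable UMIs that came from its leading segment (red) and from all others (grey), 1 bar per cell, ordered by Ikkb_cKO library and labelled with the segment and its UMIs. In 17 of the 18 cells the light-chain segment takes over 90% of the bar, and the pair Igkv5-43 and Ighv3-6 recurs in 3 cells of replicate 2.

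Jchain-low cells used a wide set of segments. A light-chain segment was read in 29 of 30 cells and a heavy-chain segment in 20, and the 19 cells with both held 19 different pairs. Some of these heavy-chain segments rested on 1 UMI. Since RNA of Ighm and Igkc was also read in fibroblasts, such pairs are uncertain. Igkv8-28 also led 1 of them, a cell of Ikkb_cKO replicate 2 with 58 UMIs, beside Ighv5-9-1. One WT replicate 2 cell had Ighv1-81 (7 UMIs) and 11 UMIs of Vpreb3, a gene of the precursor B cell receptor pathway, with no light-chain segment and 0 UMIs of Cd74. Vpreb1, Igll1, Rag1 and Dntt, other genes of B cell precursors, gave 0 UMIs in all 54 cells. The whole list of precursor genes gave 15 UMIs in the WT replicate 2 cell with 11 of Vpreb3. Another Jchain-low cell of that library held 3 UMIs of Sox4, also on the list.

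MHC class II chains and several B cell genes were read mainly in the Jchain-low cells, but Cd24a, Cd81 and Blnk were not. In Ikkb_cKO cells with light-chain or variable UMIs, Cd24a gave 19, 15 and 29 UMIs, of which 1, 0 and 2 lay in Jchain-low cells. For Cd81 these were 10, 17 and 32, with 2, 2 and 2 in Jchain-low cells, and for Blnk 9, 17 and 18, with 2, 2 and 1. Cd74, which escorts MHC class II, was present in both, at 13 to 175 UMIs (median 47) in Jchain-high and 0 to 107 (median 37.5) in Jchain-low cells. H2-Aa, an MHC class II chain, gave 4 UMIs over the 18 Jchain-high cells and 269 over the 30 Jchain-low cells, of which 120 were in WT and 149 in Ikkb_cKO. Cd22, Pax5, Spib and Ccr7 gave 0 UMIs in the Jchain-high cells, while Ccr7, a lymph node homing receptor, was read in 21 of 30 Jchain-low cells. Ebf1, a B-lineage transcription factor, was read in 2 of 18 against 23 of 30 cells. Ms4a1, one of the genes of the rule, was read in 2 Jchain-high and 21 Jchain-low cells.

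Genes of antibody secretion were read mainly in the Jchain-high cells. Xbp1, the transcription factor of the secretory endoplasmic reticulum, was read in all 18 Jchain-high cells at 5 to 39 UMIs and in 0 of 30 Jchain-low cells. Mzb1, a chaperone of IgM assembly, gave 2 to 214 UMIs (median 41) in Jchain-high cells and 0 to 6 (median 1) in Jchain-low cells. Prdm1, which encodes the regulator Blimp-1, was read in 15 of 18 Jchain-high cells with 36 UMIs, and in 0 of 30 Jchain-low cells. Irf4, a transcription factor that acts with it, was read in 15 with 53 UMIs, against 2 Jchain-low cells with 3 UMIs. Sdc1, the surface proteoglycan CD138, was read in 14 of 18, Tnfrsf17, a survival receptor for the cytokines BAFF and APRIL, in 16, Derl3 in 15 and Eaf2 in 18. These 4 genes gave 0 UMIs in the Jchain-low cells.

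Depth differed between the kinds and bears on such counts of cells. Jchain-high cells held 3784 to 48870 UMIs (median 12302), and 2180 to 31993 (median 6610.5) with immunoglobulin UMIs left out, against 672 to 6389 (median 1968) in Jchain-low cells. H2-Aa, Ccr7 and Ebf1 gave fewer UMIs in the deeper kind. For the secretory genes the part of depth was not tested.

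**Figure D4:**
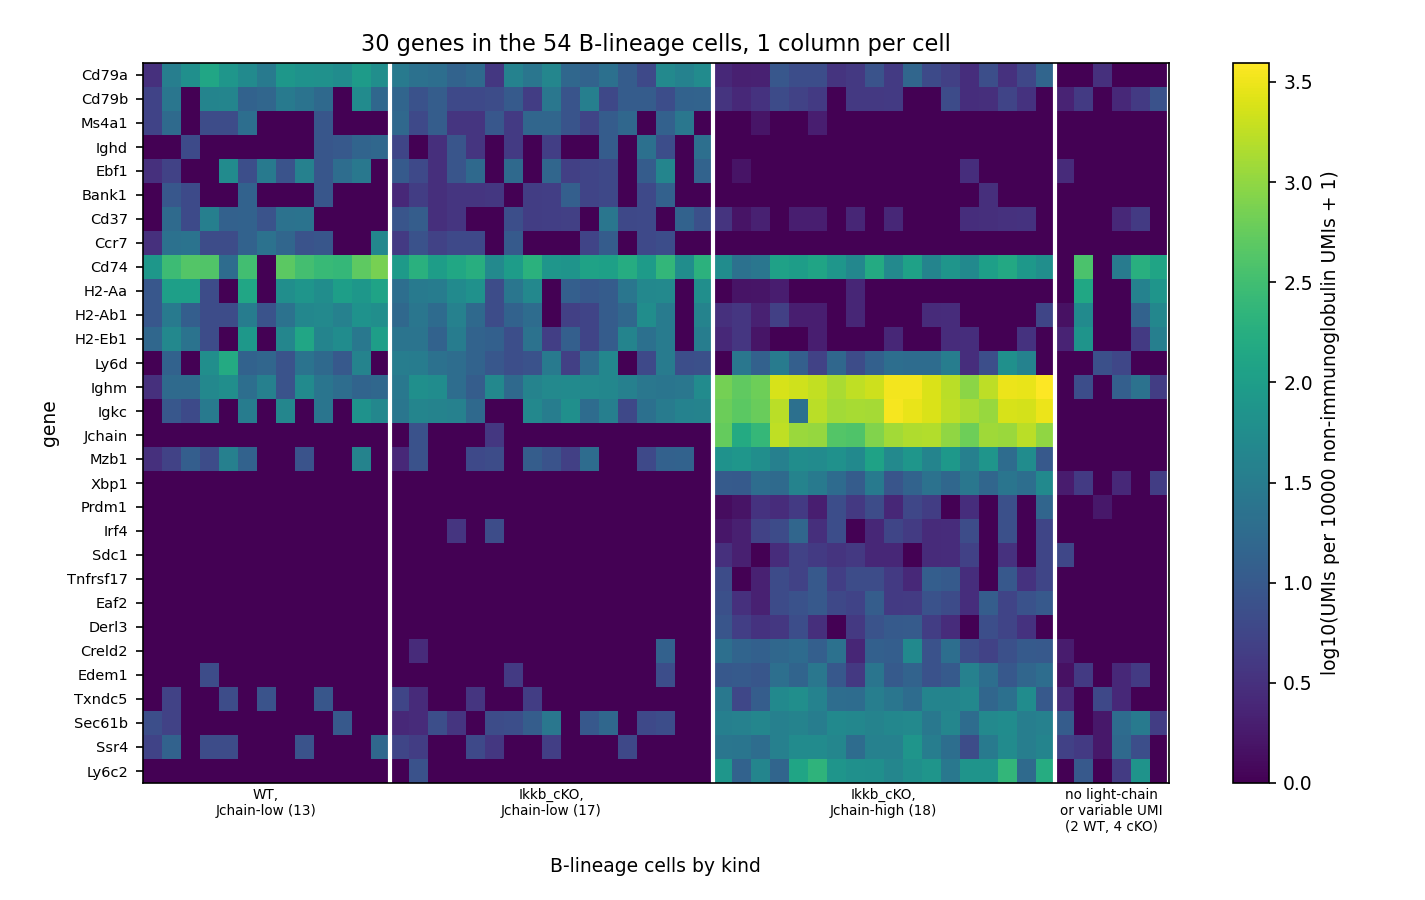
log10 of UMIs per 10000 non-immunoglobulin UMIs, plus 1, for 30 genes (rows) in the 54 B-lineage cells (columns), grouped as 13 WT Jchain-low, 17 Ikkb_cKO Jchain-low, 18 Ikkb_cKO Jchain-high and 6 cells without light-chain or variable UMIs. Rows from Jchain to Ly6c2 are bright in the Jchain-high block, and rows from Ms4a1 to Ccr7 and the H2 rows are dark there; Mzb1 and the endoplasmic reticulum genes are also seen at low levels in other columns.

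Cell division genes were read in few cells. The 20 genes of the cell cycle list gave 148, 153 and 197 UMIs in 3 Jchain-high cells and under 10 in each of the other 15. Mki67, a proliferation marker, was read in 7 of the 18, with 34 UMIs. In the Jchain-low cells the same list gave 0 to 83 UMIs, with a median of 2. The list of germinal centre genes, the genes of B cells that mutate their receptors in lymphoid follicles, gave 36 UMIs in the Jchain-high cells, 34 of them from Mki67, which is also on that list.

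Markers of other cell types were near 0 in the Jchain-high and Jchain-low cells. The rule itself bars the CD3 genes and limits the collagen genes, Dcn, C1qa, C1qb, C1qc and Pf4, so the low counts of T cell, fibroblast and macrophage genes were partly set by it. The 13 T cell genes listed gave 0 UMIs in the Jchain-high and 2 in the Jchain-low cells, the 12 macrophage and monocyte genes 11 and 5, the 9 fibroblast genes 11 and 14, and the 8 keratinocyte genes 10 and 3. The 11 genes of natural killer and innate lymphoid cells gave 2 and 5 UMIs, the 9 of mast cells and basophils 1 and 0, the 7 endothelial genes 3 and 6 and the 6 erythroid genes 0 and 0. The 12 dendritic cell genes gave 26 and 46, and that list holds Ccr7, which gave 44 of the 46, and Epcam, an adhesion molecule, which gave 24 of the 26 in 11 Jchain-high cells. The 6 cells without light-chain or variable UMIs went against the label. One in WT replicate 2 held 22828 UMIs with 456 from the fibroblast list, among them 62 of Col3a1. One cell each in WT replicate 2 and Ikkb_cKO replicate 3 held the myeloid gene Lyz2, at 62 and 12 UMIs. One each in Ikkb_cKO replicates 2 and 3 held Siglech, a plasmacytoid dendritic cell gene, at 2 and 6 UMIs. A cell of Ikkb_cKO replicate 3 held 2030 UMIs of Krt25 and 1677 of Krt71, keratins of the hair follicle. These 6 cells passed on 3 or more marker UMIs. The WT replicate 2 cell with 22828 UMIs passed on 3 UMIs of Cd79b alone, a gene also read in WT fibroblasts.

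Beside CD3-positive T cells of the same libraries, the B-lineage cells showed the genes of their lineage. Summed per library and tested with edgeR's quasi-likelihood test with library as a block, 353 of 1313 genes (26.9%) differed at an adjusted p (Benjamini-Hochberg) under 0.05. Of these, 139 were higher in B-lineage cells (10.6% of genes tested) and 214 lower (16.3%). The gates used Cd79a, Cd79b, Ms4a1, Ighm and the CD3 genes, so the direction of these genes was fixed in advance. They are still counted among the 353 calls, and the other fits against T cells did not exclude them. None of them is named in what follows. Mzb1 gave 1045 UMIs in B-lineage and 1 in T cells (log2 difference 11.26 ± 0.38 SE, adjusted p = 1.8e-09). Ebf1 gave 75 and 1 (7.45 ± 0.59, adjusted p = 3e-06), H2-Aa 352 and 12 (7.12 ± 0.50, adjusted p = 2.1e-06) and Mef2c, a transcription factor of B and other cells, 101 and 0 UMIs, at least 102-fold higher per UMI against a floor of 3 UMIs. All 5 of the tested genes of MHC class II presentation were higher in B-lineage cells.

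Among the genes lower in the B-lineage cells were genes of T and cytotoxic cells. Ccl5, a chemokine of effector lymphocytes, gave 0 UMIs in B-lineage and 2834 in T cells, and Nkg7, of cytotoxic granules, 0 and 1011, at least 311-fold and 111-fold lower. Of 9 tested genes of the BAFF receptor, CD40 and NF-kB list 7 were lower, among them Nfkbia, the NF-kB inhibitor (log2 difference -2.02 ± 0.53, adjusted p = 0.026, and 0.064 and 0.056 without Ikkb_cKO replicate 2 or 3), and Tnfaip3 (-3.69 ± 0.74, adjusted p = 0.0079), and 0 were higher. The list's median was -2.34, against -0.02 over all genes tested. Of 16 tested genes of activation and the immediate early response 8 were lower, with a median of -1.21. With the 6 cells without light-chain or variable UMIs left out, 370 of 1325 genes (27.9%) were called, 126 higher (9.51%) and 244 lower (18.4%), and in Jchain-low cells alone 189 of 807 (23.4%), 72 higher (8.92%) and 117 lower (14.5%). Leaving out Ikkb_cKO replicate 1, 2 or 3 lowered the 353 calls to 194, 208 and 203.

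Between the genotypes, the summed B-lineage cells of Ikkb_cKO were higher for the antibody-secretion genes and lower for several genes of naive B cells. With 2 WT and 3 Ikkb_cKO libraries, edgeR's quasi-likelihood test called 103 of 1137 genes (9.06%) at an adjusted p under 0.05, 76 of them higher (6.68%) and 27 lower (2.37%) in Ikkb_cKO. The summed cells held 15136 and 33152 UMIs in WT and 85734, 109068 and 162662 in Ikkb_cKO, and Jchain-high cells gave 76.9%, 81.6% and 75.8% of the Ikkb_cKO UMIs. In WT replicate 2 the 2 cells without light-chain or variable UMIs, which went against the label, held 22828 and 3306 of its 33152 UMIs. The fit therefore compares sums in which the kinds have different weights. Within Jchain-low cells alone, 24 of 228 genes (10.5%) were called, 14 higher (6.14%) and 10 lower (4.39%). The 10 include Cd79a, a gene of the rule, which supports nothing. Of the 103 genes, 31 were tested there, 12 kept their call and 5 had the opposite sign.

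Of the 10 tested genes of the plasma cell list, 9 rose and 0 fell. Of the 10, 5 had 0 UMIs in WT. These 5 passed the low-count filter through Ikkb_cKO alone and could not have fallen. The median log2 fold change of the 10 was 5.87 as fitted, against -0.01 over all genes tested. It was 2.95 with the 5 genes at 0 UMIs in WT held at their lower bound. Jchain gave 0 and 0 UMIs in WT and 2195, 4686 and 6274 in Ikkb_cKO, at least 592-fold higher per UMI against a floor of 3 UMIs over the WT group (adjusted p = 1.0e-04, edgeR). Mzb1 gave 10 and 7 against 254, 351 and 423 UMIs (log2 fold change 3.73 ± 0.48 SE, adjusted p = 0.0023), and in the Jchain-low cells alone its log2 fold change was -0.95 with adjusted p = 0.46. Xbp1 gave 0 and 3 against 75, 109 and 107 UMIs, a ratio of 13.1 per UMI with a 95% counting interval of 4.44 to 63.9 (adjusted p = 0.0032). The 3 WT UMIs came from the 2 WT cells without light-chain or variable UMIs.

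Receptors and regulators of the same list moved with them. Tnfrsf17 gave 0 and 0 against 12, 22 and 38 UMIs, at least 3.24-fold higher (adjusted p = 0.018), Irf4 0 and 0 against 22, 21 and 13, at least 2.52-fold (adjusted p = 0.028), and Eaf2 0 and 0 against 16, 27 and 44, at least 3.92-fold (adjusted p = 0.014). The groups did not overlap for any of the 3, but lack of overlap was a condition for naming the largest rises, these 3 among them. At 0 UMIs in WT, they passed the low-count filter through Ikkb_cKO alone. Ly6c2, a surface protein of the Ly6 family, gave 0 and 3 against 301, 272 and 632 UMIs, a ratio of 54.3 (interval 18.5 to 263, adjusted p = 0.00053). Ly6k, another Ly6 gene, gave 0 and 0 against 26, 7 and 46 UMIs, at least 3.56-fold higher (adjusted p = 0.0499), and Pou2af1, a B-lineage co-activator of octamer-binding factors, 2 and 2 against 27, 40 and 43 (log2 fold change 2.71 ± 0.58, adjusted p = 0.019). Irf4 lost its call without WT replicate 2 (adjusted p = 0.089), Eaf2 without Ikkb_cKO replicate 2 (0.061), Pou2af1 without either of them (0.077 and 0.092), and Ly6k without WT replicate 1 or 2 (0.092 and 0.24), while Tnfrsf17 kept its call in 14 of 14 alternatives. Without the 6 cells that lack light-chain or variable UMIs, Pou2af1 (adjusted p = 0.072) and Ly6k (0.0504) lost theirs. Without Ikkb_cKO replicate 2 the 103 calls fell to 21, 17 higher and 4 lower, and without Ikkb_cKO replicate 1 to 64, and without WT replicate 1 they rose to 201.

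Genes that fold and move secreted proteins through the endoplasmic reticulum were among the risen genes. Creld2, a stress-responsive chaperone, gave 0 and 2 against 48, 78 and 120 UMIs (ratio 16.6, interval 4.55 to 138, adjusted p = 0.0032). Txndc5, a disulphide isomerase, gave 1 and 7 against 89, 159 and 214 (log2 fold change 3.87 ± 0.51, adjusted p = 0.0025). Sec11c, of the signal peptidase, gave 5 and 4 against 129, 231 and 234 (3.91 ± 0.49, adjusted p = 0.0023), and Ssr4, of the translocon, 5 and 14 against 136, 170 and 252 (2.89 ± 0.36, adjusted p = 0.0023). Hsp90b1, the chaperone GRP94, gave 6 and 53 against 294, 266 and 483 (2.35 ± 0.52, adjusted p = 0.024), and lost its call without Ikkb_cKO replicate 1 or 2 (adjusted p = 0.055 and 0.089). Of its WT replicate 2 UMIs 3 lay in cells with light-chain or variable UMIs, and over such cells its log2 fold change was 3.92 ± 0.42 (adjusted p = 1.8e-05). In the Jchain-low cells it was 0.61 (adjusted p = 0.72). Txndc5, Sec11c, Ssr4 and Hsp90b1 were named after their values were seen.

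The promoters of some of these genes hold a known element of the response to unfolded proteins. The endoplasmic reticulum stress element was searched as CCAAT, 9 bases of any kind and CCACG, on both strands, from 250 bases before to 50 after each gene's start in RefSeq (GRCm38.p6). It was found in 37 of 27025 genes with a promoter (0.137%), in 9 of 888 genes tested here (1.01%), in 4 of 59 risen genes with a promoter in the table (6.78%) and in 0 of 20 fallen ones. The 4 are printed to show where the element lies, in capitals, in each. On the reverse strand it starts with CGTGG and ends with ATTGG, and Hsp90b1 holds 2 matches.
Creld2, chr15:88819396-88819695, plus strand: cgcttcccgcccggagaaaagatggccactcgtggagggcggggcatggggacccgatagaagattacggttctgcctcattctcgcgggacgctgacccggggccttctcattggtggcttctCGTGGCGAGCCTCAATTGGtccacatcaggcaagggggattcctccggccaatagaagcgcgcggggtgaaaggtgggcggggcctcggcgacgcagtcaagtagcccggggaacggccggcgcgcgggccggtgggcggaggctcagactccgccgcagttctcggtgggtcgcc
Derl3, chr10:75893148-75893447, plus strand: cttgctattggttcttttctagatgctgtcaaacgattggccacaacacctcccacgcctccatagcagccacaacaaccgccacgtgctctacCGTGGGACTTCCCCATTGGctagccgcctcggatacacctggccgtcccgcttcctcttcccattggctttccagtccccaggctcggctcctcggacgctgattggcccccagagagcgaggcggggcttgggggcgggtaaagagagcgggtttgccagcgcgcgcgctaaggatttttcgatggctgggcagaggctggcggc
Dnajc3, chr14:118937682-118937981, plus strand: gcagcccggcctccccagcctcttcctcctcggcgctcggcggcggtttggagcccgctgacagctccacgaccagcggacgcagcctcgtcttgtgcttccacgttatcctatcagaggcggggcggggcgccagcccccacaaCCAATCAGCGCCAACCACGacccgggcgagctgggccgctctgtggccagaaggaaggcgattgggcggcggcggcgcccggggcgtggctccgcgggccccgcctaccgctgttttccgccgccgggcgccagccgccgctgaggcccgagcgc
Hsp90b1, chr10:86705395-86705694, minus strand: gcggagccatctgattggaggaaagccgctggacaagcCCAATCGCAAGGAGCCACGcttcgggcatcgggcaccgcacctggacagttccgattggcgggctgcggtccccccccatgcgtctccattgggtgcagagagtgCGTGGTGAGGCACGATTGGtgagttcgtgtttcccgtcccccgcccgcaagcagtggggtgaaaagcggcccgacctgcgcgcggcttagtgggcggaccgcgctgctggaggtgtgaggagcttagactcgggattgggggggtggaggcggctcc
Derl3 encodes a factor that returns misfolded proteins to the cytosol, and Dnajc3 a co-chaperone of the endoplasmic reticulum. Derl3 gave 0 and 0 against 17, 14 and 44 UMIs, at least 3.38-fold higher (adjusted p = 0.021, and 0.056 and 0.060 without WT replicate 2 or Ikkb_cKO replicate 2), and Dnajc3 0 and 6 against 29, 37 and 77 (log2 fold change 2.59 ± 0.70, adjusted p = 0.048, and 0.073 and 0.13 without Ikkb_cKO replicate 1 or 2). Of the other tested genes with the element, Calr, Canx, Hspa5, Pdia6 and Hnrnpa3 did not pass the test. A second element, TGACGTGG, was found in 0.714% of all promoters and in 2 risen genes, Pou2af1 and Txndc5, and the octamer ATTTGCAT in 1.97% of all promoters, 1.69% of genes tested, 1 risen gene, Sec61g, and 2 of the 20 fallen genes (10.0%), Col3a1 and Vpreb3. A match in these windows describes the letters and no binding.

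Among immunoglobulin genes, Igkc gave 22 and 8 UMIs in WT and 2970, 7302 and 10288 in Ikkb_cKO (log2 fold change 6.98 ± 0.90, adjusted p = 0.0029, and 0.072 and 0.13 without WT replicate 1 or 2), and in the Jchain-low cells the difference was 1.02 and did not pass the test (adjusted p = 0.077). Of 5 tested constant regions, Igkc, Iglc2 and Ighm, which is a gene of the rule, rose and 0 fell. Iglc2 and Iglc3 are near-identical copies and their division is uncertain. Iglc2 rose by 2.26 ± 0.58 on the log2 scale (adjusted p = 0.040, and 0.18 and 0.14 without WT replicate 2 or Ikkb_cKO replicate 2) in all cells and stood at -0.56 (adjusted p = 0.57) in the Jchain-low cells. Igkv8-28, Igkv1-117 and Iglv1 were among the 5 segments with the most UMIs, and none passed the test (adjusted p = 0.41, 0.51 and 0.33). Igkv12-89 and Igkv5-43, the other two, did not pass the filter on low counts.

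The genes that fell include those of antigen presentation and homing. Of 8 tested genes of MHC class II presentation 2 fell and 0 rose, with a median of -1.31 against -0.01 over all genes. H2-Aa gave 87 and 79 UMIs in WT and 63, 58 and 65 in Ikkb_cKO (log2 fold change -2.00 ± 0.40, adjusted p = 0.015), and H2-Eb1 63 and 44 against 48, 26 and 45 (-2.06 ± 0.51, adjusted p = 0.037). The summed UMIs differ far less than the fold changes because the Ikkb_cKO sums are deeper. Of the WT replicate 2 UMIs, 33 of H2-Aa and 17 of H2-Eb1 lay in cells with light-chain or variable UMIs. Over such cells the log2 fold changes were -2.44 ± 0.36 and -2.31 ± 0.42 (adjusted p = 0.00038 and 0.0023, edgeR). Ccr7 gave 13 and 11 against 6, 6 and 8 (-2.38 ± 0.56, adjusted p = 0.028), and Vpreb3 7 and 13 against 1, 2 and 4 (-3.46 ± 0.54, adjusted p = 0.0051). H2-Aa, H2-Eb1 and Ccr7 lost their calls without WT replicate 1 (adjusted p = 0.062, 0.27 and 0.16) and without Ikkb_cKO replicate 2 (0.079, 0.12 and 0.092), and Ccr7 also without Ikkb_cKO replicate 1 (0.054). Vpreb3 kept its call in 13 of 13 alternatives, but its WT counts rest on few cells. All 7 UMIs of WT replicate 1 lay in 1 cell, and 11 of the 13 of WT replicate 2 in 1 cell. Without the 6 cells that lack light-chain or variable UMIs, 6 of 9 tested genes of MHC class II presentation and 5 of 21 of B cell identity fell, and 139 genes were called in all (12.3% of 1133), 99 higher (8.74%) and 40 lower (3.53%). Of B cell identity the fallen genes were Blk, Cd37 and Ebf1, and the rule's Cd79a and Cd79b, which support nothing. Igkc and Iglc2, also on that list, rose there (log2 fold change 6.52 and 1.51, adjusted p = 4.1e-07 and 0.038, edgeR). With all cells the list's median was 0.44 over 16 tested genes.

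Marcksl1, a cytoskeletal regulator, had the second-largest fall among the genes named by size, with 15 and 22 against 1, 0 and 4 UMIs (-4.86 ± 0.74, adjusted p = 0.0049). It was lower in all 3 Ikkb_cKO libraries than in both WT libraries, which was a condition for being named by size. Of the 22 UMIs 2 lay in cells with light-chain or variable UMIs, and over such cells its log2 fold change was -5.57 ± 0.82 (adjusted p = 0.00036). Some fallen genes came from 1 cell. Fn1, fibronectin, gave 2 and 42 UMIs in WT against 2, 0 and 1, and Col1a2 and Col3a1, which the rule limits, fell with it; the WT replicate 2 cell with 456 fibroblast-list UMIs lies in this sum. Of 13 tested activation and immediate early genes Btg1, Dusp2 and Junb fell and 0 rose, with a median of -0.88. Junb, a subunit of the AP-1 transcription factor, gave 22 and 41 against 20, 13 and 40 UMIs (-1.85 ± 0.42, adjusted p = 0.024, and 0.056, 0.051 and 0.079 without WT replicate 1, Ikkb_cKO replicate 1 or Ikkb_cKO replicate 2). Btg1 lost its call without WT replicate 1 (adjusted p = 0.16), WT replicate 2 (0.080) or Ikkb_cKO replicate 2 (0.11), and Dusp2 without WT replicate 1 (0.15) or Ikkb_cKO replicate 2 (0.11). Of the genes of B cell receptor signalling (4 tested), the B-1 and marginal zone list (2) and the interferon response (5), 0 passed the test in either direction, and the medians were -0.05, 0.56 and 1.35. Of the 2 tested genes of recirculating follicular B cells and the 4 migration receptors Ccr7 alone passed, of 5 cell cycle genes Hmgb2 alone, higher (but not without WT replicate 2 or Ikkb_cKO replicate 1 or 2, at adjusted p = 0.11, 0.10 and 0.12), and of 2 genes of the interleukin response list Xbp1 alone. No gene of the germinal centre list was tested.

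**Figure D5:**
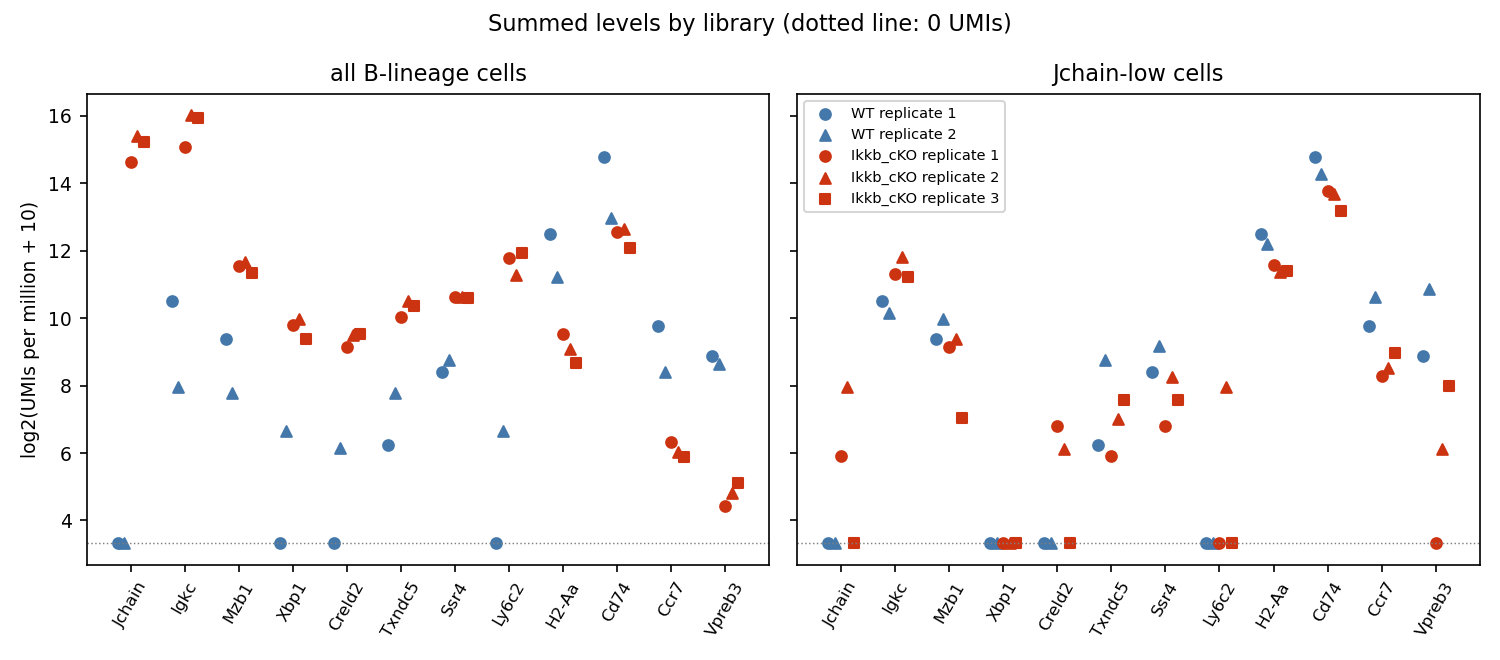
log2 of CPM plus 10 of 12 genes in the summed B-lineage cells of each library, WT in blue and Ikkb_cKO in red, for all cells (left) and for Jchain-low cells (right); the dotted line is 0 UMIs. Jchain, Igkc, Mzb1, Xbp1, Creld2, Txndc5, Ssr4 and Ly6c2 are higher in the 3 Ikkb_cKO libraries on the left. On the right Xbp1 is at 0 in all 5 libraries, Igkc is still higher, and H2-Aa, Cd74, Ccr7 and Vpreb3 are lower in the 3 Ikkb_cKO libraries.

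Within the Jchain-low cells the genotypes differed in MHC class II, S100a6 and ribosomal protein genes. Cd74 gave 427 and 140 UMIs in WT against 278, 223 and 153 in Ikkb_cKO, or 28211 and 19949 against 14016, 13238 and 9288 CPM (log2 fold change -1.08 ± 0.27, adjusted p = 0.022). H2-Aa (-1.01 ± 0.21, adjusted p = 0.0080) and H2-Eb1 (-1.07 ± 0.29, adjusted p = 0.033) fell as well. So 3 of the 4 tested genes of MHC class II presentation fell and 0 rose, with a median of -1.04 against 0.05 over all genes. The other, H2-Ab1, gave 37 and 12 against 38, 21 and 33 UMIs, overlapped between the groups on the CPM scale and did not pass the test. T cells held little RNA of Cd74, H2-Aa and H2-Eb1, at means of 62.6 against 46.8, 7.82 against 10.2 and 3.91 against 8.27 CPM. The groups overlapped there, but at such levels T cells cannot show whether a fall is common to the libraries. S100a6, a calcium-binding protein, gave 3 and 0 against 81, 141 and 75 UMIs, and was read in 2 of 13 WT and 13 of 17 Ikkb_cKO cells, with a log2 fold change of 5.28 ± 0.70 (adjusted p = 0.0033). In the T cells it stood at 3965 against 5204 CPM, and in the Jchain-high cells at 4 UMIs in all. S100a6 and the ribosomal genes were named after their values were seen.

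The ribosomal protein genes moved in T cells too. Of the 79 tested in Jchain-low cells 11 rose and 0 fell, from Rps19 (0.97 ± 0.23) to Rpl13a (2.24 ± 0.60), with a median of 0.26 against 0.05 over all genes. Each of these 11 was also higher in the T cells of all 3 Ikkb_cKO libraries than in those of both WT libraries. Rps28 stood at 3370 and 1140 CPM in WT Jchain-low cells and 9983, 7539 and 6374 in Ikkb_cKO, and 2170 and 1415 against 5651, 5487 and 5504 in T cells. Plac8, a gene of the B-1 and marginal zone list that many leukocytes express, rose by 1.95 ± 0.57 on the log2 scale (adjusted p = 0.044), and in T cells it stood at means of 46.4 against 579 CPM. Of the 24 genes called in Jchain-low cells, 17 had the same direction without overlap in T cells of the same libraries. Among the 24 is Cd79a, which the T cell gate holds at 0. The share of all genes without overlap in T cells was not counted. The 17, and the 11 ribosomal genes, therefore cannot be set against it. The part of a shift common to the libraries was not tested.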

How the data were processed

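Single-cell RNA of 5 libraries, each of 2 mice, was counted. The deposited matrices hold UMI counts per gene and barcode, made by the authors. The submitters' processing notes name Cell Ranger 1.3.0 and mm10, and the file headers a software version of 3.0.1. Whether free RNA was corrected for is not stated. The members and gene lists were chosen with earlier results of these data known.

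Of 31053 gene identifiers 30934 matched GENCODE M21, the source of positions on GRCm38 (mm10). Scrublet in scanpy 1.11.5 marked 25 kept barcodes (0.236%), under the 0.5% at which a caller is taken to have worked; 0 B-lineage cells were marked and none was removed. Counts were summed per library, filtered with filterByExpr, scaled by TMM on full library sizes and tested with the robust quasi-likelihood test of edgeR 4.0.16, with Benjamini-Hochberg adjustment over all tested genes and a threshold of 0.05. TMM factors were 1.45 and 1.42 for WT and 0.850, 0.804 and 0.710 for Ikkb_cKO. Libraries were the replicates. Nothing says that libraries of a group came from separate mice beyond the pooling of 2 in each, so p-values measure only the spread between these libraries. CPM levels are not TMM-scaled. Bounds and counting intervals (95%, exact binomial) use summed UMIs and cover counting error only.

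The fits were also run on simulated counts, but the outcome is not given here and supports no result above. Genes named were those of the rule's markers, immunoglobulin constant regions, up to 4 of highest level and 2 of smallest p in each of the lists, the 5 variable segments with most UMIs, the 12 largest called rises and 12 largest called falls without overlap whose average log2 CPM was 6 or more, and the 15 highest and 8 lowest against T cells; others are said to be named after their values were seen. Alternatives were other cell filters, marker minimums of 2 and 5, doublets, thinning, the rule without Ighm, denominators, filters, scalings, DESeq2 1.42.0, a replicate block and each library left out; leaving out cells without light-chain or variable UMIs, and these and the Jchain-high cells, was added after seeing the data. Promoters are from RefSeq, and alignments of segments were made with Biopython 1.88.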

Additional observations from a re-analysis of the deposited data

Results flagged for a closer look

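Outside the rule, 3 barcodes held at least 10 Jchain UMIs, all in Ikkb_cKO libraries and none in WT, a signal in barcodes that no comparison used. One in Ikkb_cKO replicate 2 held 42 Jchain and 304 Ighm UMIs among 1088 and no Cd79a or Cd79b UMI. One in Ikkb_cKO replicate 3 held 19 and 118 among 604 UMIs, with 126 genes and 33.3% mitochondrial UMIs. The other, also in replicate 3, held 12 and 16 among 2499 UMIs and was over the collagen limit. Whether these are cells or free RNA was not tested.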

How the results depend on the processing

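The difference in mean share of kept barcodes (0.838 percentage points) stayed positive in the alternatives run, from 0.302 for Jchain-low cells alone to 0.850 with at least 500 genes, and from 0.667 to 1.08 with 1 library left out. It was 0.494 among B-lineage and T cells and 1.85 among Ptprc-positive barcodes; no exact test on 5 libraries can pass 0.05. Deviations of same-numbered libraries from their group means correlated at 0.0718 and -0.108. With 2 WT libraries their deviations mirror each other, so these values cannot decide whether the replicate numbers pair the libraries. A replicate block gave a mean paired difference in share of 1.08 and raised the 103 genotype calls to 147, 93 of them shared.

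The 103 genotype calls became 377 with 2 marker UMIs, 272 with no low-count filter, 38 with equal numbers of cells per library and 24 in Jchain-low cells alone, and ranged from 21 to 201 with 1 library left out. The 353 calls between B-lineage and T cells became 1186 with no filter, 626 with a minimum of 10 UMIs in 3 sums, which admitted 2196 genes, and 189 in Jchain-low cells alone, and ranged from 194 to 446 with 1 library left out. The lower counts in Jchain-low cells come with fewer genes tested (228 and 807). The cause of the others was not tested. DESeq2 called 100 and 343 genes. The share of genotype calls that were higher, 73.8%, was 76.1% with DESeq2 size factors.

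Of the named genes, 5 values that passed the threshold in 1 of the 2 settings compared turned sign: H2afz, at -0.29 in the genotype fit, ranged from -1.03 to 8.95 with 1 library left out, the highest without WT replicate 2, whose cells hold all its WT UMIs; Iglc2 (-0.56) and Mzb1 (-0.95) turned in Jchain-low cells alone, and so did Rel (from -0.26 to 1.16) and Ssr4 (from 2.28 to -0.15) in the fit against T cells. Of the other values of named genes under the alternatives, 1890 stayed on the same side of the threshold, some of those past it in neither setting with another sign, 148 lost and 103 gained a call. Depth limits every zero: WT cells hold 48288 UMIs in all.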
